A study of Mus musculus with 23 samples.

Results

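The genes described here encode 9 mouse proteins that make prostaglandins and leukotrienes from arachidonic acid. They were *Pla2g4a*, *Ptgs1*, *Ptgs2*, *Ptges*, *Ptges3*, *Alox5*, *Alox5ap*, *Lta4h* and *Alox15*, chosen by name as members of the pathway, and all 9 were among the 21878 genes listed for sorted neutrophils. Bulk RNA-Seq was performed in 3 experiments. In the first, neutrophils of WT mice came from bone marrow (BM), peripheral blood (PB) or lung, with 3 libraries per tissue. In the second, neutrophils came from the PB or lung of WT or *Piezo1*-cKO mice, with 2 libraries per tissue and genotype. In the third, whole lungs of control and neutrophil-depleted (PMN deletion) mice were profiled, with 3 libraries each.

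The study's methods name C57BL/6J mice without tying them to a group, and the labels do not say whether WT mice of the second experiment carried the loxP-flanked allele. Neutrophils were sorted as CD45+CD11b+Ly6G+ cells, and lungs were perfused before the cells were taken. The methods describe mincing and warm digestion with collagenase and DNase for lung, and no such step for blood or BM. Cells of PB and lung, but not of BM, first passed a negative selection kit for neutrophils. This handling changed together with tissue, and its part in the tissue differences was not tested. The study's methods describe young adults of either sex in general, and the labels give no age for a library. The study also depleted neutrophils at an early age, and its text gives no age for the whole-lung mice. In the cKO mice, loxP-flanked *Piezo1* was deleted by a Cre under the *Vav1* promoter, which is active across blood lineages, so other blood cells of these mice also carried the deletion. Neutrophil depletion used an antibody to Ly6G, with an isotype antibody in control animals. The study's legend gives 3 mice for the tissue libraries, and does not say whether each mouse gave all 3 tissues. The tissue comparisons may therefore be paired, and were fitted as unpaired. For the other experiments neither the labels nor the methods tie each library to an animal of its own, so the p-values there measure only the spread between these libraries, which may be technical. Levels are FPKM, that is, read counts scaled to the length of the transcript and to the reads mapped in the library, so levels of different genes can be compared.

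Prostaglandins and leukotrienes share one precursor. Cytosolic phospholipase A2, the product of *Pla2g4a*, frees arachidonic acid from membrane phospholipids. The cyclooxygenases COX-1 (*Ptgs1*, usually constitutive) and COX-2 (*Ptgs2*, usually inducible) turn it into prostaglandin H2, which the prostaglandin E synthases encoded by *Ptges* (inducible, microsomal) and *Ptges3* (cytosolic, also the cochaperone p23) convert to prostaglandin E2. In the other branch, 5-lipoxygenase (*Alox5*), with its activating protein FLAP (*Alox5ap*), makes leukotriene A4, and leukotriene A4 hydrolase (*Lta4h*) turns this into leukotriene B4, a strong neutrophil attractant. The 12/15-lipoxygenase encoded by *Alox15* is known from eosinophils and resident macrophages and takes part in the formation of lipoxins and other mediators.

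In GRCm38.p6, *Ptgs2* (chr1:150100031-150108234, plus strand) and *Pla2g4a* (chr1:149829618-149961290, minus strand) both lie on chromosome 1, *Ptgs1* lies at chr2:36216742-36258593 (plus strand) and *Lta4h* at chr10:93453396-93484896 (plus strand). The promoter windows of *Ptgs2*, *Ptgs1* and *Lta4h*, from 250 bases before to 50 bases after the RefSeq start, are printed because the 2 cyclooxygenase genes moved in opposite directions between tissues and *Lta4h* was far higher in BM than in the other tissues. All windows are GRCm38.p6 and from the plus strand, which is the strand of each gene: chr1:150099781-150100080 for *Ptgs2*, chr2:36230176-36230475 for *Ptgs1* and chr10:93453146-93453445 for *Lta4h*. The RefSeq start used for *Ptgs1* lies inside the gene span given above, which begins upstream of it. Capitals mark matches to the motifs searched.
Ptgs2: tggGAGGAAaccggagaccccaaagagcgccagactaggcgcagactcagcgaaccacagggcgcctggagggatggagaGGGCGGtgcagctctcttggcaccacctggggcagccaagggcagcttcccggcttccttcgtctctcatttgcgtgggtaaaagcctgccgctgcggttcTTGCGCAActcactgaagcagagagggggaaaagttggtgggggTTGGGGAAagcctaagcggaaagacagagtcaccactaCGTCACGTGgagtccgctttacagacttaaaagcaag
Ptgs1: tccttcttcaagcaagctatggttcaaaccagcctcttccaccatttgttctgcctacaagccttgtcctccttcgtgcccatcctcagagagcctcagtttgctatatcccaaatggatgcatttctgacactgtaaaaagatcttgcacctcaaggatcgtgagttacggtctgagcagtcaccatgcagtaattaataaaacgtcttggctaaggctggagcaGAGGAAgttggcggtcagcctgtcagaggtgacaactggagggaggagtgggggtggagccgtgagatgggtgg
Lta4h: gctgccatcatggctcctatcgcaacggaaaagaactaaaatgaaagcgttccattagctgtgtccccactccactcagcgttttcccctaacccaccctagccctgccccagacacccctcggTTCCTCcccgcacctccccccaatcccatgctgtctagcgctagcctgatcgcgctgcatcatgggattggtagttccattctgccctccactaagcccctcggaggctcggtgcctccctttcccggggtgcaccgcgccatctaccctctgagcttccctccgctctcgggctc

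The motifs searched were TATAAA on the gene's strand and, on both strands, TGACG (a cAMP response element half-site), CACGTG (an E-box), TGANTCA (AP-1), TTNNGNAA (C/EBP), GGGCGG (an Sp1 GC box), GAGGAA (a Pu box) and the kappaB consensus. The *Ptgs2* window held a Pu box, a GC box at -170 to -165 from the start, a palindromic C/EBP match at -69 to -62, another C/EBP match at -25 to -18, and a response element half-site at 14 to 18 that overlapped an E-box at 17 to 22. The *Ptgs1* and *Lta4h* windows each held 1 Pu box and no other match. Of all 32851 promoters in the RefSeq table, 40.7% held the C/EBP letters, 35.7% the GC box, 28.3% the Pu box, 20.8% the half-site, 8.32% TATAAA, 7.81% AP-1, 7.15% the E-box and 4.51% kappaB. These matches are letters in a window, and no binding was measured. *Alox5ap* and *Alox15* were not in the table.

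Sequencing depth of the sorted libraries was 9621120 to 19330774 reads assigned to genes. All 8 neutrophil markers (such as *Ly6g*, *S100a8* and *Cxcr2*) reached at least 1 FPKM in every sorted library. Summed neutrophil precursor markers were 33.7 to 35.4 FPKM in BM, 1.89 to 2.78 in PB and 2.65 to 3.59 in lung, and the part of this in the BM differences was not tested. The BM sum was mostly the cell cycle genes *Mki67* (mean 16.2 FPKM) and *Top2a* (15.8). The granule protein genes were low everywhere, with *Prtn3* at 1.34 to 1.81 FPKM in BM, 1.77 to 2.44 in PB and 0.840 to 1.74 in lung, and means of 0.458 for *Elane* and 0.276 for *Mpo* in BM. Among the WT PB libraries of the first experiment, replicate 3 stood apart, with a mean chi-square per gene of 27.0 and 45.1 against the other two, where counting noise alone gives 1 and the largest value among pairs of one group was otherwise 5.23. *Piezo1* itself had 3 to 10 reads in each library of the second experiment, too few to check the genotype labels. In bulk samples, fewer cells of a type and less RNA per cell cannot be told apart.

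In neutrophils from WT mice, *Ptgs2* was the member with the widest range. It was lowest in BM, higher in PB and highest in lung, while *Lta4h*, *Ptgs1*, *Pla2g4a* and *Ptges* were highest in BM. *Alox5ap* was highly expressed in every tissue. A gene was called when its limma adjusted p was below 0.05 and its log2 difference was above 1 in size. Between lung and PB, 1 of the 7 tested members was called higher and 1 lower, where 7.75% and 19.5% of all 7577 tested genes were called higher and lower. *Ptges* and *Alox15* were too low to be tested there.

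**Figure D1:**
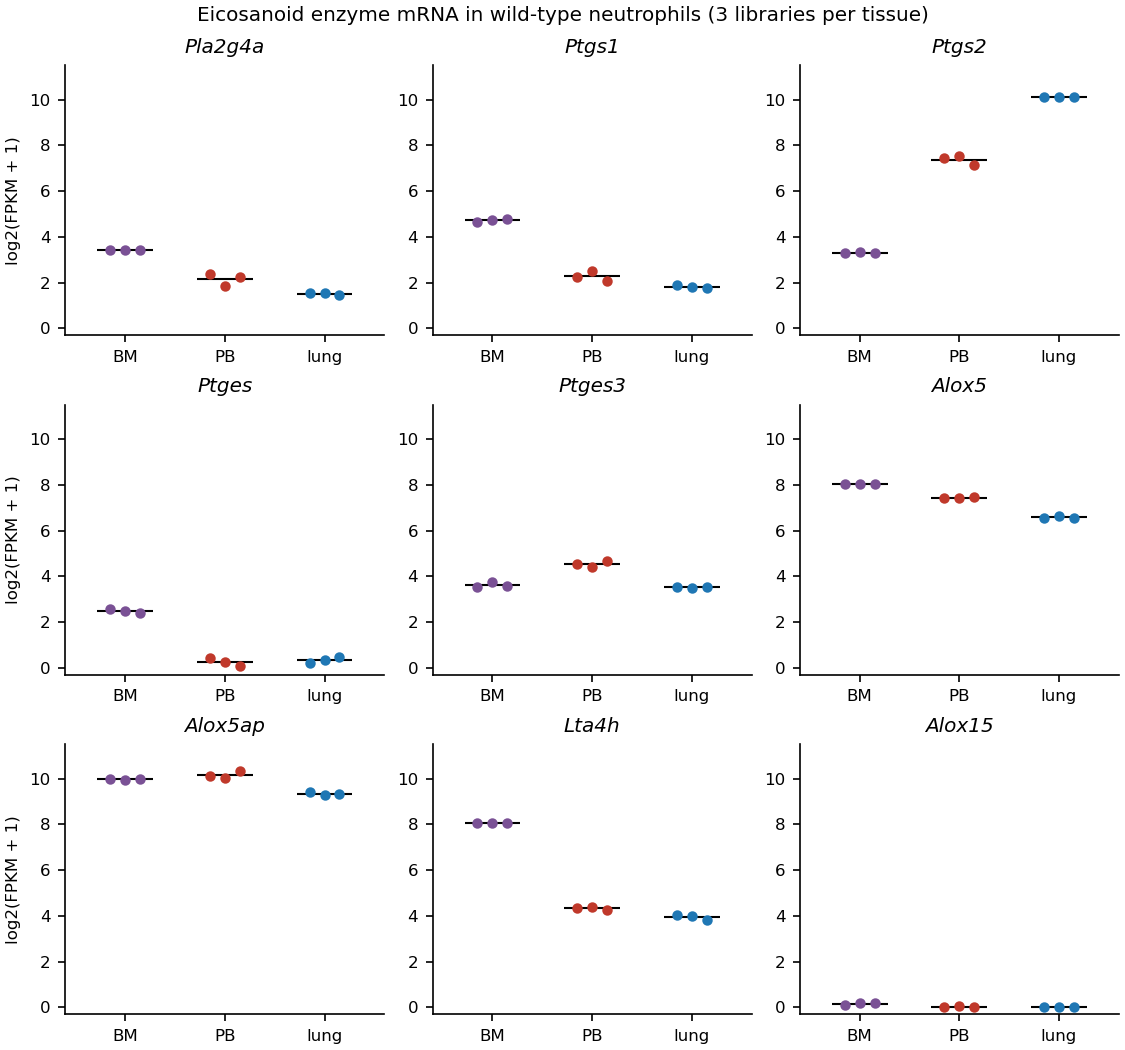
Levels of the 9 members in neutrophils of WT mice, one panel per gene, with tissue on the x axis and log2(FPKM + 1) on the y axis. Points are libraries and lines are means of 3 libraries. *Ptgs2* climbs from BM to PB to lung without overlap, *Lta4h* is high in BM alone, and *Alox15* stays near 0.

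*Ptgs2* stood at 8.86, 9.12 and 8.82 FPKM in the 3 BM libraries, at 175, 182 and 141 in PB, and at 1096, 1099.6 and 1103 in lung. No library of one tissue overlapped another tissue, and the lung libraries lay closest together relative to their mean. Among all genes by mean FPKM, *Ptgs2* ranked 4213 in BM, 403 in PB and 49 in lung. Its mean was 1099.6 ± 3.89 FPKM in lung and 166 ± 22.1 in PB (SD, n = 3 each), which is 6.62-fold, with a log2 difference of 2.73 ± 0.094 (SE, limma adjusted p = 8.5e-08). Against BM, the log2 difference was 4.06 ± 0.095 for PB (18.6-fold, limma adjusted p = 1.9e-08) and 6.79 ± 0.024 for lung (123-fold, limma adjusted p = 2.4e-16). The COX-2 gene thus passed the test in each of the 3 tissue comparisons. Summed monocyte and macrophage markers, another known source of *Ptgs2*, were 52.2 to 57.0 FPKM in BM, 156 to 171 in PB and 123 to 127 in lung, so they were highest in PB, where *Ptgs2* was not. Only 2 to 3 of those 8 genes reached 1 FPKM in a library, and their part in the *Ptgs2* differences was not tested. The enzyme digestion described for lung, and not for PB or BM, cannot be told apart from tissue here.

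*Ptgs1*, the COX-1 gene, went the other way. It stood at 23.8, 26.0 and 26.7 FPKM in BM, at 3.76, 4.75 and 3.19 in PB, and at 2.73, 2.49 and 2.40 in lung. BM did not overlap the other tissues, and PB and lung did not overlap either but lay close together. Against BM, the log2 difference of *Ptgs1* was -2.45 ± 0.115 for PB (6.54-fold lower, limma adjusted p = 5.2e-07) and -2.90 ± 0.063 for lung (limma adjusted p = 3.6e-11). Between lung and PB its log2 difference was -0.46 ± 0.121 (limma adjusted p = 0.0076), short of the size threshold, and became 0.03 when libraries were rescaled to a common median gene ratio. Summed platelet markers, another source of *Ptgs1*, were 3.65 to 4.05 FPKM in BM, 1.62 to 2.80 in PB and 2.62 to 3.07 in lung, and 1 to 3 of the 6 platelet genes were at 0 in each of these libraries. Their part in the *Ptgs1* difference was not tested. Exons of *Ptgs1* share up to 148 bases with *Gm43621* on the opposite strand, and without strand information reads of the 2 genes cannot be told apart.

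**Figure D2:**
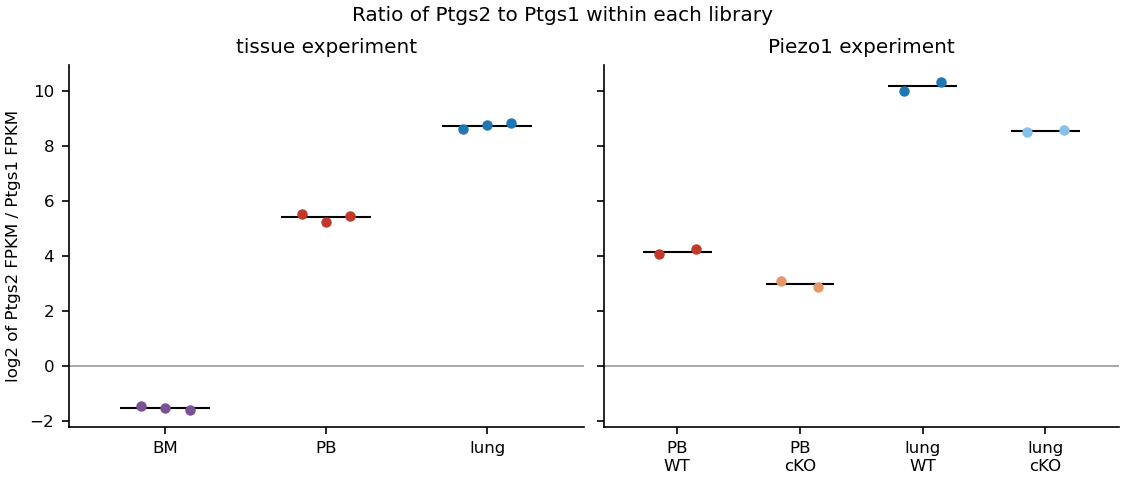
Ratio of *Ptgs2* to *Ptgs1* within each library of sorted neutrophils, on a log2 axis, with groups of both experiments on the x axis. Points are libraries and lines are means. The ratio is under 1 in BM, between 7.48 and 46.5 in the PB libraries, and at least 368 in the lung libraries.

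The ratio of *Ptgs2* to *Ptgs1* within a library does not depend on scaling between libraries. It was 0.331 to 0.373 in BM, 38.3 to 46.5 in PB and 399 to 458 in lung. The dominant cyclooxygenase transcript was therefore *Ptgs1* in BM and *Ptgs2* in PB and lung. *Ptgs2* made up 24.8% to 27.2% of the summed cyclooxygenase FPKM in BM, 97.5% to 97.9% in PB and 99.8% in each lung library. These ratios are descriptions, since 3 libraries against 3 cannot reach a permutation p of 0.05.

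The gene of the phospholipase at the head of the pathway, *Pla2g4a*, was highest in BM, at 9.60, 9.80 and 9.67 FPKM. It stood at 4.22, 2.65 and 3.79 in PB and at 1.89, 1.93 and 1.73 in lung, again without overlap. Both tissues were called lower than BM, with log2 differences of -1.25 ± 0.127 for PB (limma adjusted p = 4.6e-05) and -1.91 ± 0.061 for lung (limma adjusted p = 6.2e-10). Between lung and PB, the log2 difference of -0.66 ± 0.134 (limma adjusted p = 0.0019) was not called. The substrate-releasing gene and *Ptgs2* thus differed in opposite directions from BM to lung.

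Of the prostaglandin E synthase genes, the inducible *Ptges* stood at 4.87, 4.64 and 4.31 FPKM in BM, at 0.356, 0.194 and 0.0442 in PB, and at 0.160, 0.272 and 0.382 in lung. BM lay far above both other tissues, and PB and lung overlapped at 3 to 23 reads per library. The difference from BM was -2.23 ± 0.108 for PB (limma adjusted p = 5.8e-07) and -2.14 ± 0.086 for lung (limma adjusted p = 3.3e-09) on the log2(FPKM + 1) scale, which understates the change of so low a gene. In mean FPKM it was 23.3-fold lower in PB and 17.0-fold lower in lung.

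The cytosolic synthase gene *Ptges3* was highest in PB, at 21.9, 20.3 and 24.1 FPKM. It stood at 10.7, 12.5 and 10.8 in BM and at 10.7, 10.2 and 10.5 in lung, and the highest lung library lay just under the lowest BM library. *Ptges3* was called lower in lung than in PB, with a log2 difference of -1.01 ± 0.073 (limma adjusted p = 4.4e-06), but the call was lost without PB replicate 3 (-0.95), without lung replicate 2 (-0.99) and with rescaled libraries (-0.41). Between PB and BM its log2 difference of 0.91 ± 0.086 (limma adjusted p = 2.8e-05) was not called, and was 1.02 and called with rescaled libraries. The RefSeq annotation also lists a pseudogene, *Ptges3-ps*, and whether the counting shared reads with it was not tested, so the level is uncertain.

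Among the leukotriene genes, *Lta4h* had the largest differences from BM. It stood at 267, 267 and 269 FPKM in BM, at 19.1, 19.8 and 18.2 in PB, and at 15.3, 15.1 and 13.0 in lung. BM stood far above both other tissues, and the PB libraries were all above the lung libraries. Its log2 difference from BM was -3.75 ± 0.051 for PB (14.1-fold lower, limma adjusted p = 7.6e-09) and -4.12 ± 0.053 for lung (18.5-fold lower, limma adjusted p = 7.7e-13). Between lung and PB, the log2 difference was -0.37 ± 0.076 (limma adjusted p = 0.0018), which was not called and turned to 0.23 with rescaled libraries.

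*Alox5*, the gene of 5-lipoxygenase, stood at 259, 262 and 260.3 FPKM in BM, at 169.9, 173 and 174 in PB, and at 93.4, 97.8 and 92.0 in lung. The tissues did not overlap and fell in that order. It was called lower in lung than in BM, with a log2 difference of -1.46 ± 0.027 (limma adjusted p = 1.1e-11), a call lost with rescaled libraries (-0.61). Its differences of -0.86 ± 0.049 between lung and PB (limma adjusted p = 1.1e-06) and -0.60 ± 0.046 between PB and BM (limma adjusted p = 7.7e-06) were under the size threshold.

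*Alox5ap*, the gene of FLAP, was the most abundant member in BM and PB, at 1007, 982 and 1001 FPKM in BM and 1105, 1046 and 1275 in PB. In lung it stood at 678, 627 and 645 FPKM, lower than in either other tissue without overlap. It was called in no tissue comparison, with log2 differences of -0.81 ± 0.080 for lung against PB (limma adjusted p = 2.9e-05), -0.62 ± 0.028 for lung against BM (limma adjusted p = 7.9e-09) and 0.19 ± 0.079 for PB against BM (limma adjusted p = 0.059), and the lung to BM difference turned to 0.23 with rescaled libraries. Its exons share up to 107 bases with *Gm19719* on the opposite strand, so the same limit holds for its reads. In lung its mean of 650.1 FPKM was below that of *Ptgs2*, while in PB it was above it.

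Within a library, *Lta4h* stood at 1.02 to 1.03 times *Alox5* in BM, at 0.105 to 0.114 in PB and at 0.142 to 0.164 in lung. The 2 transcripts were thus close to equal in BM, and *Lta4h* was the lower one in PB and lung. *Alox5ap* stood at 3.75 to 3.88 times *Alox5* in BM, 6.05 to 7.35 in PB and 6.41 to 7.26 in lung, where PB and lung overlapped.

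*Alox15* had 11, 26 and 26 reads in the BM libraries and 0 to 5 reads in those of PB and lung, and was too low to pass the filter. Without the filter, its difference from BM was -0.148 ± 0.0351 for PB (limma adjusted p = 0.012) and -0.159 ± 0.0329 for lung (limma adjusted p = 0.0034) on the log2(FPKM + 1) scale. In 2 of the 3 PB libraries and 2 of the 3 lung libraries it had 0 reads, which allows up to 0.0174 to 0.0196 FPKM (the value of 3 reads, counting error only). Eosinophil markers, which accompany *Alox15* in other leukocytes, summed to at most 2.26 FPKM in any of these 9 libraries.

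**Figure D3:**
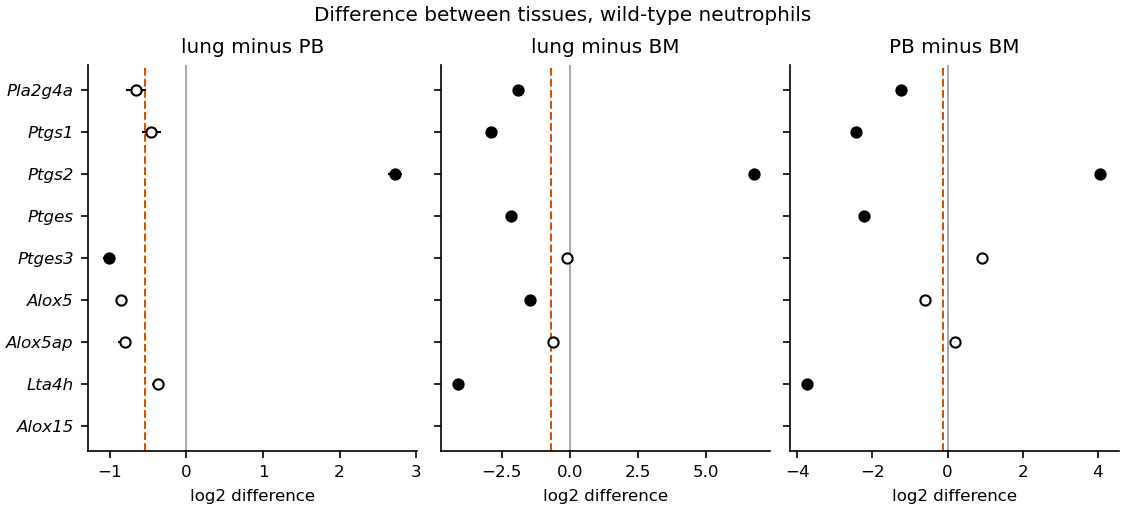
Log2 differences of the members between tissues of WT mice, from limma on log2(FPKM + 1), with genes on one axis and the log2 difference on the other. Bars are standard errors, filled points are called, and the dashed line is the median of all genes tested. *Ptgs2* lies to the right in each comparison, and *Lta4h*, *Ptgs1*, *Pla2g4a* and *Ptges* lie left of the median gene in both comparisons with BM.

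The median of all tested genes was itself shifted in these comparisons, to a log2 difference of -0.54 for lung against PB, -0.70 for lung against BM and -0.12 for PB against BM. Relative to the median gene, *Ptgs2* differed by 3.26 between lung and PB, and *Ptges3* by -0.47. The remaining 5 tested members then lay between -0.32 (*Alox5*) and 0.16 (*Lta4h*), with *Ptgs1* at 0.08. Against BM, *Lta4h* in lung was at -3.42, while *Alox5ap* was at 0.09 and *Ptges3* at 0.60. With rescaled libraries, 932 genes were higher and 448 lower in lung than in PB, where the libraries as deposited gave 587 and 1476, and for lung against BM the counts were 1587 and 1158 where they had been 812 and 2965.

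Against BM, 1 of 8 tested members was called higher and 5 lower in lung, where 9.86% and 36% of all 8236 tested genes were called higher and lower. In PB against BM, 1 of 8 was called higher and 4 lower, where the shares of all 8237 genes were 7.85% and 14.1%. *Ptgs2* was the member called higher in both comparisons. The lung and PB comparisons with BM share the BM libraries.

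The second experiment compared the same tissues in mice with and without *Piezo1* in blood cells. In WT mice, *Ptgs2* stood at 71.1 and 72.7 FPKM in PB and at 648 and 642 in lung, and in cKO mice at 29.4 and 25.1 in PB and at 753 and 755 in lung. All 4 groups were apart, with the cKO libraries lower than WT in PB and slightly higher than WT in lung. The gene had 8.98 times the mean PB level in WT lung and 27.7 times in cKO lung. PB and lung values of this experiment sit in separate deposited tables, but FPKM is scaled within each library.

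**Figure D4:**
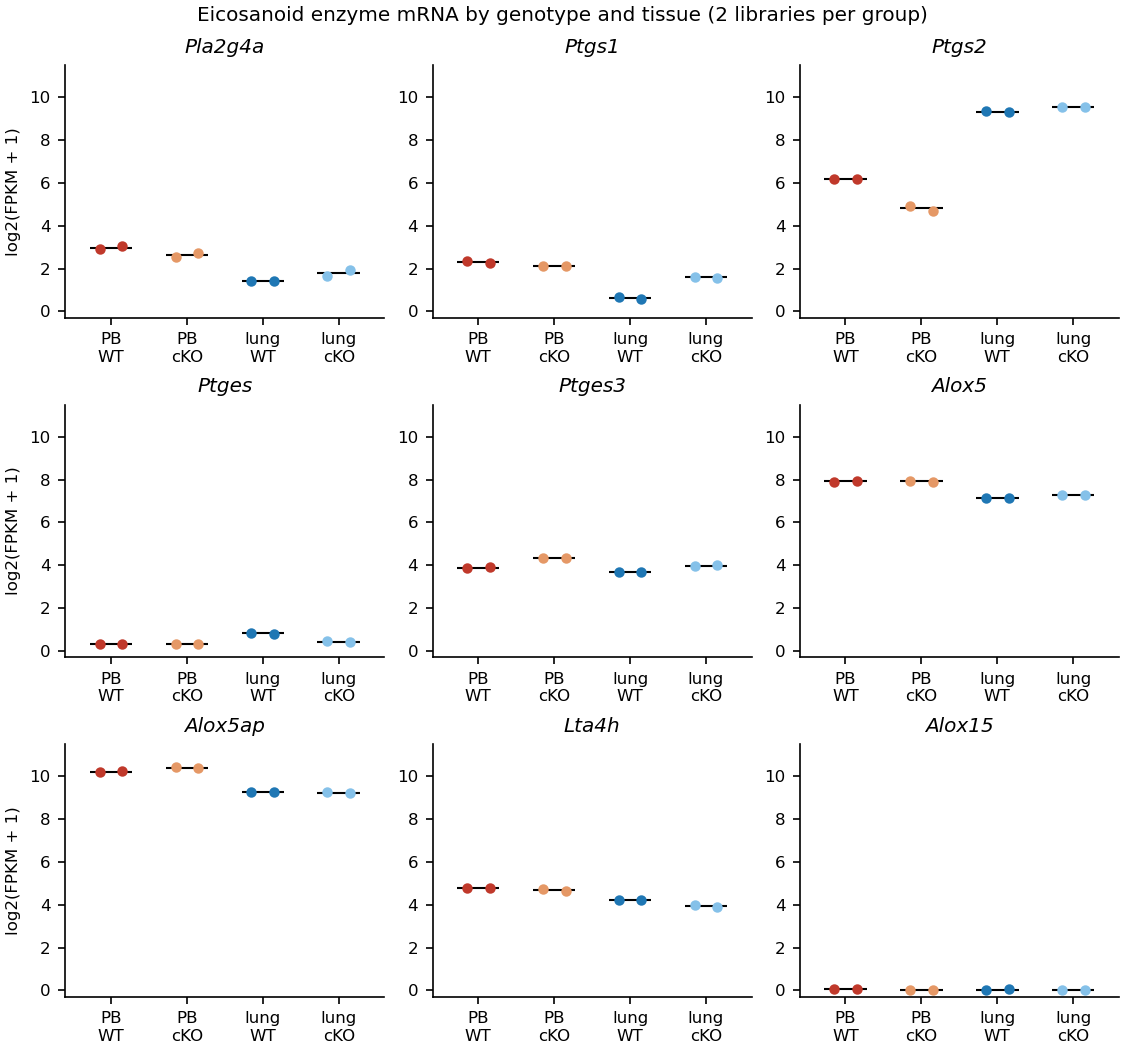
Levels of the 9 members in PB and lung neutrophils of WT and *Piezo1*-cKO mice, one panel per gene, with group on the x axis and log2(FPKM + 1) on the y axis. Points are libraries and lines are means of 2 libraries. The cKO libraries lie below WT for *Ptgs2* in PB and above WT for *Ptgs1* in lung.

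In PB, 1 of the 7 tested members was called between genotypes, lower in cKO, where 1.97% of all 7256 tested genes were called lower and 1.68% higher. This was *Ptgs2*, with a mean of 27.2 ± 3.04 FPKM in cKO and 71.9 ± 1.07 in WT (SD, n = 2 each). It fell by 1.37 ± 0.078 on the log2 scale (2.64-fold, limma adjusted p = 0.00017). With 2 libraries per group, this SE rests largely on variance shared across genes. Summed erythroid markers moved with genotype in the same libraries, at 564 to 572 FPKM in cKO and 11.0 to 11.7 in WT, with 1 of the 4 genes at 0 in the cKO libraries and 2 in the WT libraries, and came to 0.0975% to 0.102% of all FPKM in the cKO libraries. Their part in the result was not tested.

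The other PB members differed less. *Ptges3* stood at 19.4 and 19.3 FPKM in cKO and at 13.5 and 14.2 in WT, a log2 difference of 0.45 ± 0.065 (limma adjusted p = 0.0018). *Pla2g4a* stood at 4.90 and 5.69 in cKO and at 6.64 and 7.18 in WT, a difference of -0.33 ± 0.096 (limma adjusted p = 0.026). *Alox5ap* stood at 1387 and 1335 in cKO and at 1162 and 1221 in WT, a difference of 0.19 ± 0.042 (limma adjusted p = 0.0086). These 3 pairs of groups did not overlap and all missed the size threshold. With 2 libraries per group such separation often arises by itself, and the share of all genes without overlap was not counted. On the limma adjusted p alone, 4 of 7 members passed, as did 49.7% of all 7256 tested genes. *Ptgs1* (-0.19, limma adjusted p = 0.12), *Lta4h* (-0.07, limma adjusted p = 0.38) and *Alox5* (0.02, limma adjusted p = 0.7) missed the p threshold as well, and the *Alox5* difference turned to -0.0025 with rescaled libraries.

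In lung, 0 of 7 tested members were called by limma between genotypes, where 0.995% of all 6434 tested genes were called in either direction. All but *Alox5ap* had an unadjusted p under 0.05, which is 6 of 7, and the same 6 had a limma adjusted p under 0.05, as did 50.7% of all tested genes. edgeR and DESeq2 on the recovered reads each called 1 member, *Ptgs1*, where they called 5.36% and 4.83% of all tested genes. *Ptgs1* stood at 0.616 and 0.482 FPKM in WT lung and at 2.04 and 1.95 in cKO lung, from 57 and 45 reads in WT and 186 and 173 in cKO. The groups did not overlap, and the mean was 3.63-fold higher in cKO.

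On the log2(FPKM + 1) scale, which understates changes of low genes, the *Ptgs1* difference was 0.95 ± 0.095 (limma adjusted p = 0.00039). It passed the size threshold at 1.01 without WT lung replicate 1, and at 1.70 with a pseudocount of 0.1. edgeR's quasi-likelihood test gave a log2 difference of 1.75 (adjusted p = 4.9e-11). Summed platelet markers were 2.31 to 3.06 FPKM in WT lung and 2.76 to 3.69 in cKO lung, with 2 of the 6 genes at 0 in each. Single platelet genes moved with genotype in these libraries: *Pf4* had a mean of 0.795 FPKM in WT and 1.59 in cKO with no overlap, and *Gp9* stood at 0.0671 to 0.133 in WT and 0.362 to 0.491 in cKO. *Itga2b* went the other way, at 0.232 to 0.391 in WT and 0.0408 to 0.0790 in cKO, and *Ppbp* overlapped. Their part in the *Ptgs1* difference was not tested. The WT lung libraries of the first experiment held 2.40 to 2.73 FPKM of *Ptgs1*, above both genotypes of this one.

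The other lung members moved little between genotypes. *Ptgs2* was 0.22 ± 0.019 higher in cKO on the log2 scale (1.17-fold, limma adjusted p = 0.00022). *Lta4h* stood at 14.6 and 13.7 FPKM in cKO and at 17.7 and 17.7 in WT, a difference of -0.30 ± 0.059 (limma adjusted p = 0.0052). *Ptges3* stood at 14.7 and 15.0 in cKO and at 12.1 and 11.8 in WT, a difference of 0.30 ± 0.058 (limma adjusted p = 0.0052). These groups did not overlap, which 2 libraries per group often give by themselves, and the differences were under the size threshold. *Pla2g4a* stood at 2.14 and 2.83 in cKO and at 1.69 and 1.68 in WT (0.37 ± 0.118, limma adjusted p = 0.035), and *Alox5* at 154 and 156 in cKO and 138 and 141 in WT (0.14 ± 0.029, limma adjusted p = 0.0057). *Alox5ap*, at 609.7 and 598 in cKO and 612 and 621 in WT, differed by -0.03 ± 0.021 (limma adjusted p = 0.28).

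*Ptges* was under the filter in this experiment. It had 40 and 43 reads in WT lung and 18 and 19 in cKO lung, that is 0.730 and 0.792 FPKM against 0.346 and 0.354, without overlap. Without the filter on low genes, its log2 difference was -0.38 (limma adjusted p = 0.03). In PB it had 9 to 13 reads in all 4 libraries. *Alox15* had at most 5 reads in any of these 8 libraries.

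**Figure D5:**
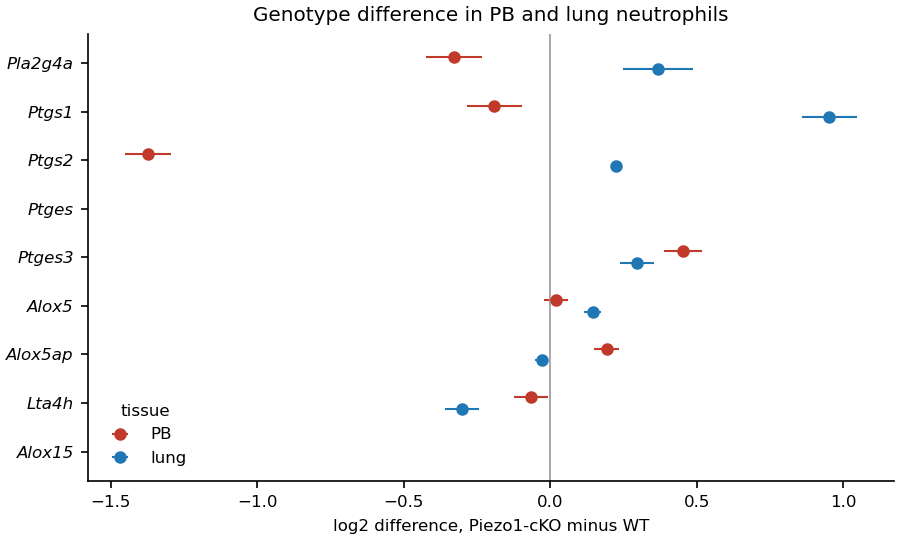
Differences between *Piezo1*-cKO and WT for each tested member in PB and lung, as log2 differences from limma on log2(FPKM + 1). Bars are standard errors, n = 2 libraries per group. *Ptgs2* is at -1.37 in PB and 0.22 in lung, and *Ptgs1* at -0.19 in PB and 0.95 in lung.

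Whether the genotype effect differed between tissues was tested as an interaction, called at limma adjusted p below 0.05 alone. The effect in lung minus that in PB was called above 0 for 4 of 7 members and below 0 for 2, where 29.7% and 18.5% of all 7560 tested genes were called in these directions, 48.2% in all. The interaction was 1.60 ± 0.086 for *Ptgs2* (limma adjusted p = 1.4e-05), 1.14 ± 0.123 for *Ptgs1* (limma adjusted p = 0.00022) and 0.70 ± 0.158 for *Pla2g4a* (limma adjusted p = 0.007) on the log2(FPKM + 1) scale. In edgeR the order of the first 2 was the opposite, with 1.56 for *Ptgs2* and 2.02 for *Ptgs1*. For these 3 genes the fitted genotype difference was above 0 in lung and below 0 in PB, where that of *Ptgs1* missed the p threshold.

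The interactions of the leukotriene genes were small. *Alox5ap* gave -0.22 ± 0.046 (limma adjusted p = 0.0044), *Lta4h* gave -0.24 ± 0.077 (limma adjusted p = 0.033) and *Alox5* gave 0.12 ± 0.045 (limma adjusted p = 0.048). The *Alox5* call was lost with rescaled libraries (0.01, limma adjusted p = 0.81), and when 1 library was left out at a time it was kept only without PB cKO replicate 1. The *Lta4h* call was kept only without PB cKO replicate 2 or lung cKO replicate 1. *Ptges3*, at -0.16 ± 0.077 (limma adjusted p = 0.12), was not called. With rescaled libraries, 1773 genes were above and 1869 below 0, where the libraries as deposited gave 2245 and 1402.

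Within each genotype, lung was compared with PB, on the same 8 libraries. In WT mice, 1 of 7 tested members was called higher in lung and 2 lower, where 7.5% and 26.5% of 7143 tested genes were called so. *Ptgs2* was higher by 3.15 ± 0.025 on the log2 scale (limma adjusted p = 2.2e-10), *Ptgs1* lower at -1.68 ± 0.098 (limma adjusted p = 2.6e-06) and *Pla2g4a* lower at -1.56 ± 0.086 (limma adjusted p = 2e-06), the last lost with rescaled libraries (-0.99). In cKO mice, 1 of 7 was called higher and 1 lower, where the shares of 7163 tested genes were 7.93% and 23%. There *Ptgs2* was higher by 4.75 ± 0.074 (limma adjusted p = 4.7e-08) and *Alox5ap* lower at -1.17 ± 0.037 (limma adjusted p = 7.6e-07), the latter lost with rescaled libraries (-0.52). *Pla2g4a*, at -0.86 ± 0.127 (limma adjusted p = 0.00068), was not called in cKO mice but passed the size threshold at -1.003 without lung cKO replicate 2. *Ptgs1* was not called there either, at -0.54 ± 0.088 (limma adjusted p = 0.0011).

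The median of all genes was -0.62 in WT and -0.54 in cKO mice in these comparisons. Relative to it, *Ptgs2* was at 3.76 in WT and 5.29 in cKO, and *Ptgs1* at -1.07 in WT and 0.00 in cKO. *Ptges3* was lower in lung at -0.20 in WT and -0.36 in cKO as deposited but at 0.49 and 0.26 with rescaled libraries, and *Lta4h* in WT went from -0.54 to 0.17. Rescaling moved the counts of all genes from 536 higher and 1893 lower to 940 and 632 in WT, and from 568 and 1644 to 976 and 550 in cKO.

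The *Ptgs2* to *Ptgs1* ratio within a library was 17.0 to 19.1 in WT PB and 7.48 to 8.70 in cKO PB. In lung it was 1035 to 1306 in WT and 368 to 385 in cKO. The cKO libraries were thus lower than WT in both tissues, in PB with lower *Ptgs2* and in lung with higher *Ptgs1*. Genotypes did not overlap in either tissue, and with 2 libraries each no test of the ratio was made.

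In whole lung, where epithelial, endothelial and other cells contribute most RNA, the balance of the members was different. *Ptges3* (50.9 to 58.7 FPKM) and *Alox5ap* (38.4 to 41.4) were the highest members in the control lungs, and *Ptgs1* (16.3 to 18.4) exceeded *Ptgs2* (4.56 to 5.24). *Alox15* stood at 3.26, 3.22 and 3.38 FPKM in control lungs and at 2.12, 6.20 and 6.09 in depleted lungs. Neutrophil markers, of which 7 of the 8 genes were listed for whole lung, summed to 211 to 273 FPKM in control and 59.2 to 132 in depleted lungs. Part of this marker RNA thus remained, and whether other cells contributed to it was not tested. By flow cytometry, the study reports that the antibody removed neutrophils efficiently from lung and PB and left monocytes unaffected.

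After depletion, 0 of the 9 members were called by limma at an adjusted p below 0.05 and a log2 difference above 0.5 in size, where 0.00715% of all 13990 tested genes (1 gene) were called. The study, at the same thresholds, reports that depletion affected many genes. Its methods name DESeq2, and the part of the choice of test in this gap was not tested. At an unadjusted limma p under 0.05 there were 4 members, but the share of all genes at that level was not counted. The 4 are therefore no result about the members. No count model was run on these libraries because recovery of whole reads was not tried there. *Ptges* had the largest difference, from 7.67, 7.41 and 6.76 FPKM in control to 5.14, 5.31 and 4.36 in depleted lungs, without overlap (-0.48 ± 0.096, limma adjusted p = 0.16). *Alox5ap* went from 39.4, 38.4 and 41.4 to 37.3, 26.2 and 27.0, also without overlap (-0.40 ± 0.134, limma adjusted p = 0.34). *Ptgs2* overlapped between groups, at 5.24, 4.56 and 4.75 in control and 6.87, 7.37 and 4.72 in depleted lungs (0.31 ± 0.151, limma adjusted p = 0.51). The remaining members had log2 differences of -0.12 to 0.34. Of these, *Ptgs1* (0.24) and *Ptges3* (0.23) were higher in depleted lungs and *Lta4h* (-0.12) was lower, all without overlap. The share of all genes without overlap was not counted, so the lack of overlap is no result about the members.

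Beyond the members, 51 genes of the same pathway were followed, covering other phospholipases, terminal synthases, lipoxygenases, receptors, transporters and inactivating enzymes. Between lung and PB in WT mice, 23 were tested, 0 were called higher and 2 lower, beside 7.75% and 19.5% of all 7577 tested genes. Their median log2 difference was -0.32, and that of all genes -0.54. With rescaled libraries 3 were called higher and 1 lower, beside 12.3% and 5.91% of all tested genes. *Ptger2*, the EP2 receptor for prostaglandin E2, had a mean of 8.47 ± 0.376 FPKM in BM and stood at 4.36 ± 0.185 FPKM in lung and 17.9 ± 1.17 in PB (SD, n = 3), a log2 difference of -1.82 ± 0.072 (limma adjusted p = 1.5e-07). *Ltb4r1*, the high-affinity receptor for leukotriene B4, stood at 17.0 ± 0.429 in lung and 40.1 ± 5.39 in PB, at -1.19 ± 0.090 (limma adjusted p = 6.2e-06), a call lost with rescaled libraries (-0.57). Of the 3 tissues, lung as deposited thus had the highest *Ptgs2* level and the lowest *Ptger2* level. The median of all tested genes was itself lower in lung than in BM (-0.70). The *Ptger2* order of lung and BM may therefore depend on scaling between libraries.

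Against BM, 3 of 26 tested pathway genes were called higher and 11 lower in lung, beside 9.86% and 36% of all genes, and 2 of 27 higher and 10 lower in PB, beside 7.85% and 14.1%. Their medians were -0.60 in lung and -0.58 in PB, beside -0.70 and -0.12 for all genes. Between genotypes, 0 of 22 were called in lung by limma, edgeR or DESeq2, beside 0.995%, 5.36% and 4.83% of all 6434 tested genes. There 13 had an unadjusted limma p under 0.05. A limma adjusted p under 0.05 was reached by 10, and by 50.7% of all tested genes. In PB, 1 of 24 was called by limma, 6 by edgeR and 6 by DESeq2, beside 3.65%, 10.1% and 9.5% of all 7256 tested genes. The limma call was *Fam213b*, a prostamide and prostaglandin F synthase gene, at 2.16 and 2.52 FPKM in cKO and 0.0966 and 0.679 in WT, from 1 to 24 reads per library (1.30 ± 0.195, limma adjusted p = 0.0022). After depletion, 0 of 36 were called in whole lung, beside 0.00715% of all 13990 tested genes. There 3 had an unadjusted limma p under 0.05, a level at which all genes were not counted.

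Genes whose levels followed a member most closely over the 9 WT libraries of the first experiment were listed by Pearson's r of log2(FPKM + 1), among 5893 genes, as a description, since the points fall into 3 tissues and share their libraries' scaling. For *Ptgs2* they were *Nr4a1*, an immediate early nuclear receptor, *Tnfaip2* and *Hcar2*, a receptor for nicotinic acid and ketone bodies, all with r of 0.9998 or more. *Nr4a1* had mean levels of 4.56 FPKM in BM, 72.3 in PB and 449.9 in lung. For *Lta4h* they were *Kcnab2*, *Mgst2* and *Adpgk*, and for *Ptgs1* they were *Rasal3*, *Coro7* and *Tspan32*. *Mgst2*, which can make leukotriene C4, stood at 48.1 FPKM in BM, 2.47 in PB and 1.72 in lung, the same order as *Lta4h*.

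For the other members, the closest genes were *Blmh*, *Rps18* and *Fam117b* for *Pla2g4a*, *Cyfip1*, *Dok2* and *Ptgr1* for *Ptges*, and *Paip2*, *Dtx4* and *Ids* for *Ptges3*. For *Alox5* they were *2410016O06Rik*, *Snx6* and *Ppp2r5e*, and for *Alox5ap* they were *Orai1*, *Bin3* and *Cdc34*. Their r lay between 0.9933 and 0.9988. *Ptgr1*, an enzyme that inactivates prostaglandins and leukotriene B4, stood at 6.69 FPKM in BM, 0.238 in PB and 0.199 in lung.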

How the data were processed

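Sorted neutrophils and whole lungs were profiled by poly(A) RNA-Seq. Per the labels and the study's methods, reads were trimmed with fastp, aligned to mm10 with HISAT2 and counted with HTSeq. Versions and strand settings are not given in the sources used here. The labels name a SMARTER kit and the methods another. The authors deposited FPKM per library (the *Piezo1* columns carry no unit label, but step by the same read value per gene), and for the *Piezo1* experiment also a signal per group, their mean of reads divided by library size factors, used here only to set the scale of recovered reads. Deposited columns of fold changes and p-values were not used. No per-sample column was left out.

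The lowest values of sorted libraries are whole multiples of 1 read, so reads were recovered, and 100% of values came out whole within 0.05 reads. Each gene was given the smallest multiplier that made its values whole, so genes with reads in a single library pass by construction. The scale of 690 genes was then set from the deposited group signals. The precision follows from 9621120 to 19330774 reads per sorted library. The depth of the whole-lung libraries is unknown.

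Samples were grouped by their labels. Genes with at least 1 FPKM in at least 3 libraries (2 in the *Piezo1* experiment) were tested with limma 3.58.1 in R 4.3.3 on log2(FPKM + 1), with trended, robust variances, Benjamini-Hochberg adjustment over all tested genes and only the groups compared in the fit (all 8 libraries for the interaction). The thresholds were an adjusted p of 0.05 and an absolute log2 difference of 1 (0.5 in whole lung, none for the interaction). Alternatives were a pseudocount of 0.1, no filter, rescaled libraries (median gene ratio), a replicate block, edgeR 4.0.16, DESeq2 1.42.0, the adjusted p alone and leaving out each library. Scripts were tested on simulated data. Promoters came from a RefSeq table of GRCm38.p6, in which 7 of 9 members were found.

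The members and pathway lists were chosen with earlier results of these data known. From the pathway lists, genes were named when called between lung and PB with a mean of at least 5 FPKM, or called between genotypes, and the 3 genes of highest r were named per member with at least 1 FPKM. *Mgst2* and *Ptgr1*, named with levels, are among the latter.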

Additional observations from a re-analysis of the deposited data

Results flagged for a closer look

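The genotype difference (*Piezo1*-cKO minus WT, log2) of 6 members differed between lung and PB by the interaction test in limma (n = 2 libraries per group). The difference in lung minus that in PB was 1.60 for *Ptgs2*, 1.14 for *Ptgs1*, 0.70 for *Pla2g4a*, 0.12 for *Alox5*, -0.22 for *Alox5ap* and -0.24 for *Lta4h*. *Ptgs2* and *Ptgs1* were past a size of 1, and in edgeR their values were 1.56 and 2.02. Of all tested genes, 48.2% passed this test, 29.7% above 0 and 18.5% below. Erythroid markers, at 564 to 572 FPKM in the PB libraries of cKO mice and 11.0 to 11.7 in those of WT mice, moved with genotype in PB, and their part in these results was not tested. No group held enough libraries for a check of single outlying values, since groups of 2 and 3 were not examined that way.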

How the results depend on the processing

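Of the log2 differences of single members under the alternatives, 764 kept their direction and side of the threshold, 36 became called, 35 lost their call and 27 changed direction. With rescaled libraries, edgeR and DESeq2, the following turned: between lung and PB in WT mice, *Ptgs1* to 0.029, 0.0086 and 0.026 and *Lta4h* to 0.23, 0.23 and 0.25; between lung and BM, *Ptges3* to 0.68, 0.68 and 0.73 and *Alox5ap* to 0.23, 0.18 and 0.23; between genotypes in PB, *Alox5* to -0.0025, -0.011 and -0.0028; between lung and PB in WT mice of the *Piezo1* experiment, *Ptges3* to 0.49, 0.50 and 0.53 and *Lta4h* to 0.17, 0.16 and 0.18; and in cKO mice, *Ptges3* to 0.26, 0.24 and 0.27. Rescaling sets the median gene near 0 by construction, which moves these values. Leaving out 1 library turned *Alox5* between genotypes in PB (-0.0012 to 0.042) and *Pla2g4a* after depletion (-0.13 to 0.023).

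The number of members called went from 2 to 1 between lung and PB in WT mice with rescaled libraries, edgeR or DESeq2, to 7 on the adjusted p alone, and lay at 1 to 2 with 1 library left out. It went from 2 to 1 in cKO mice with the same 3 alternatives, and to 7 on the adjusted p alone. Between genotypes in lung it went from 0 to 1 with a pseudocount of 0.1, edgeR or DESeq2, to 6 on the adjusted p alone, and lay at 0 to 1 with 1 library left out. Between genotypes in PB it went from 1 to 4, and between lung and PB in WT mice of the *Piezo1* experiment from 3 to 7, on the adjusted p alone. The interaction calls went from 6 to 2 with a size threshold of 1, and lay at 4 to 5 with 1 library left out. Pathway genes called with rescaled libraries went from 2 to 4 between lung and PB in WT mice, from 6 to 2 in WT mice of the *Piezo1* experiment and from 4 to 1 in cKO mice.

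Over all genes, calls between genotypes in lung went from 64 to 332 with a pseudocount of 0.1, 345 in edgeR, 311 in DESeq2 and 3265 on the adjusted p alone, and in PB from 265 to 672, 735, 689 and 3607. On the adjusted p alone they were 6479 for lung against PB, 7628 for lung against BM, 6023 for PB against BM, and 6360 and 6054 for lung against PB in WT and cKO mice of the *Piezo1* experiment, the first of which went from 2429 to 1572 with rescaled libraries. The interaction gave 3647 genes, 5509 without the filter and 518 with a size threshold of 1. Depletion gave 1 gene, 4 with a pseudocount of 0.1, 0 without the filter, 5 with the replicate block and 0 to 12 with 1 library left out. With a ratio pseudocount of 0.1, the log2 ratio of *Ptgs2* to *Ptgs1* in cKO lung went from 8.56 to 8.49, and that of *Ptges* to *Ptges3* from -3.95 to -3.81 in WT lung, -5.37 to -5.06 in cKO lung, -5.77 to -5.35 in WT PB and -6.25 to -5.82 in cKO PB. Where no other cause is named, the cause was not tested.

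Replicate numbers were not used to pair the libraries in the main fits, since nothing says that a number marks an animal. Same-numbered libraries correlated at -0.105 to 0.0887 in the first experiment, -0.0347 to 0.119 in the second and -0.0364 to 0.0582 in whole lung. The range of the second includes pairs of WT with cKO libraries. Between lung and PB of one genotype its values were 0.0617 in WT and 0.119 in cKO. With 2 libraries per group, values for unlike numbers mirror these, so no check for pairing was possible there. In the first experiment, 7 of 18 checks had a library closest to its own number (4 of 6 in whole lung). Pairing by animal is therefore not excluded. With the replicate block, the members called were 2 between lung and PB, 6 between lung and BM, 5 between PB and BM, 0 and 1 between genotypes in lung and PB, 3 and 2 between lung and PB within WT and cKO mice, and 0 after depletion, as without it, while the interaction went from 6 to 5, losing *Alox5*.

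With 2 libraries per group, leaving one out leaves a lone library that is assumed to vary like the other group. Members under about 50 reads per library (*Ptges* outside BM, *Alox15*, *Ptgs1* in WT lung of the *Piezo1* experiment) rest on few reads, and intervals for 0 reads cover counting error only. Count models were not run for whole lung.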
